A study of Rattus norvegicus with 21 samples.

Results

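The genes of fatty acid and triglyceride synthesis were followed in rat liver after dosing with BPDP (tert-butylphenyl diphenyl phosphate), an aryl phosphate ester found in flame retardants and hydraulic fluids. The animals were male Harlan Sprague-Dawley rats. The set held 33 genes, listed by name for their place in the pathway: suppliers of acetyl-CoA and NADPH, the enzymes that build, desaturate and lengthen the fatty acid chain, the enzymes that join it to glycerol, and the transcription factors of the pathway. All 33 had a probe set naming that gene alone, out of 14217 genes so represented among 31042 probe sets. A further 4 probe sets name Pgd together with other genes and were not used for it. Each of 17 members had 1 probe set of its own and 16 had several; a gene is represented by its brightest.

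BPDP was given in corn oil by gavage on 4 days at 64.6, 129.2, 258.1, 516.2 or 1032.5 mg/kg (0.169 to 2.7 mmol/kg), with 3 arrays per dose, and the vehicle group, given corn oil, had 6. Liver was taken on day 5, and all 21 arrays came from pieces of the left lobe. The treatment protocol speaks of 5 vehicle rats against the 6 vehicle arrays listed. The labels do not say that every array was a separate animal, so the p-values measure the spread between these arrays. Values are log2 signals, where a difference of 1 is a doubling, and signals of different genes cannot be compared with each other. A gene is called, and said to have risen or fallen, where limma gave an adjusted p below 0.05 after Benjamini-Hochberg adjustment over all probe sets.

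The liver makes fatty acids when carbohydrate is plentiful. Citrate leaves the mitochondrion and is cleaved to acetyl-CoA, which is carboxylated to malonyl-CoA and assembled with NADPH into palmitate, and palmitate is then lengthened, desaturated and esterified to glycerol. Insulin, acting through SREBP-1c (encoded by Srebf1), and glucose, acting through ChREBP (encoded by Mlxipl), raise transcription of most of these enzymes, with the liver X receptor (Nr1h3) above SREBP-1c. The pathway's transcripts follow feeding and the time of day.

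The 33 members did not move in a common direction over the doses, although at 258.1 mg/kg 26 log2 changes were negative and 7 positive. A few enzymes changed in opposite directions: the desaturase Scd, the glycolytic enzyme Pklr and the elongase Elovl5 fell, while the NADPH-producing malic enzyme Me1 and, at the top dose, the elongase Elovl6 rose. Lpin2, an enzyme of glycerolipid assembly, was already higher at the lowest dose. Fasn, fatty acid synthase, fell at 258.1 mg/kg only. The other enzymes from citrate to palmitate also had their lowest group mean at that dose without being called, and no difference from the doses beside it passed the test. In all, 11 members were called at 1 dose or more, 5 of them higher (Me1, Tkt, Elovl6, Lpin2 and Dgat1) and 6 lower (Scd, Pklr, Elovl5, Fasn, Mlxipl and Agpat3). The other 22 were called at no dose.

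The calls are given here with the share of all genes called in the same direction. At 64.6 mg/kg 1 member rose (0.197% of all genes rose) and none fell (0.190%), with 0.387% of genes called in all. For 129.2 mg/kg the count was 0 higher (0.352%) and 1 lower (0.169%), and 0.521% of genes were called in all. At 258.1 mg/kg 2 rose (2.23%) and 5 fell (1.33%), so that 21.2% of the members were called against 3.56% of all genes. At 516.2 mg/kg 3 rose (6.30%) and 3 fell (2.64%), or 18.2% against 8.93%. At 1032.5 mg/kg 4 rose (4.81%) and 4 fell (4.14%), or 24.2% against 8.95%. With cyclic loess scaling 3 rose and 6 fell at that dose, and the share of all genes called in that fit is not given here. These shares are descriptions, since the members were listed with earlier results of these data known. The median log2 change over the members was -0.14, -0.08, -0.24, 0.02 and -0.11 in order of dose, while that over all genes lay between -0.013 and 0.005. At 258.1 mg/kg 26 of the 33 members had a negative log2 change.

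**Figure D1:**
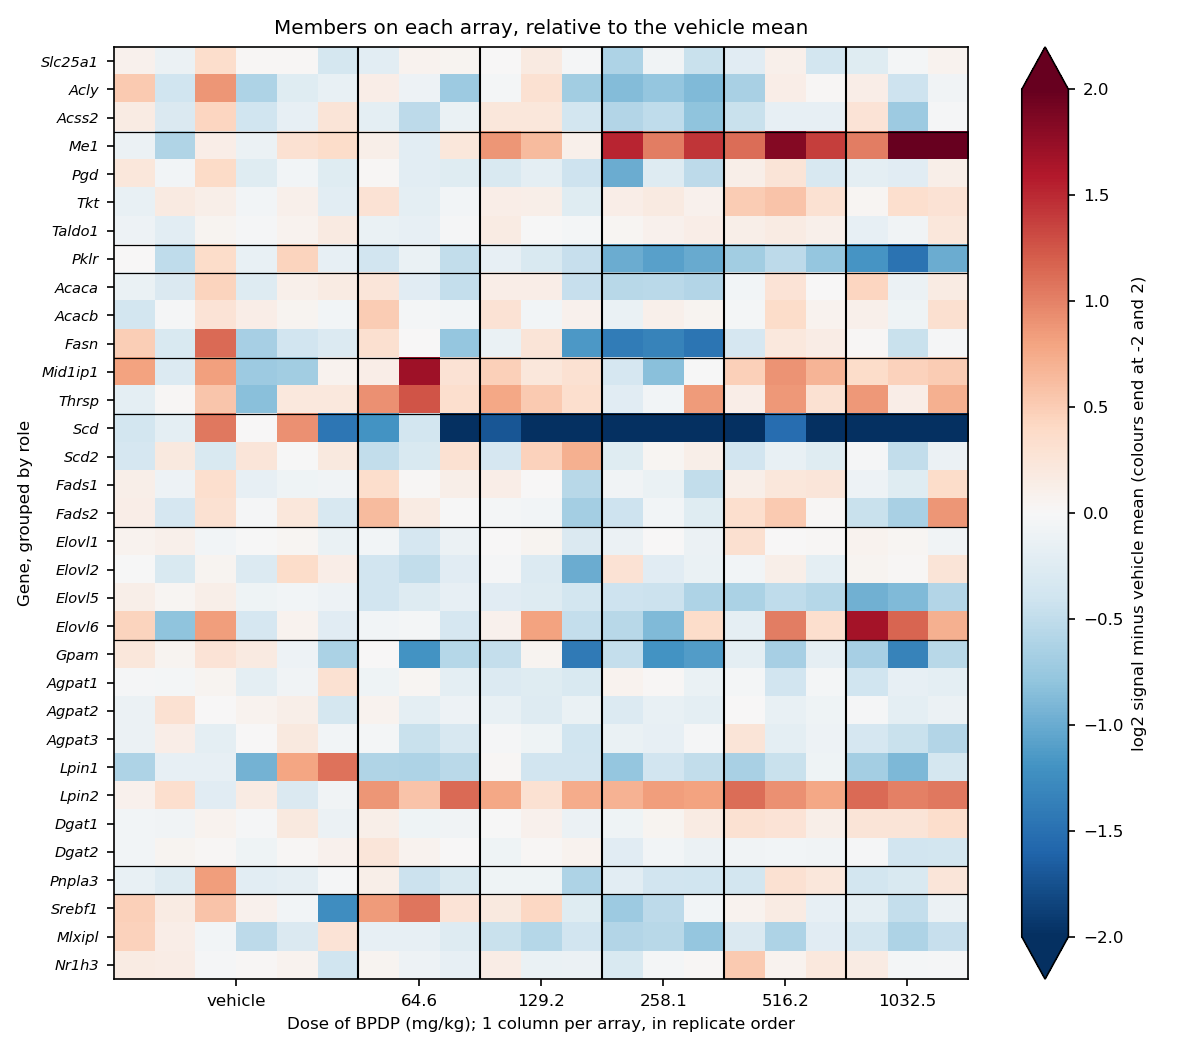
Log2 signal of the 33 members (rows, ordered by role) on each of the 21 arrays (columns, by dose in mg/kg), as the difference from the vehicle mean of that gene. Blue is lower and red higher, with colours ending at -2 and 2; Scd, Pklr and Elovl5 turn blue and Me1 red towards higher doses, Fasn and Acly are blue at 258.1 mg/kg, and vehicle replicate 3, the third column, is red for many genes.

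Vehicle arrays differed among themselves in these genes more than in most. The vehicle SD of a member ranged from 0.07 to 0.92 with a median of 0.26, against 0.13 for all genes, and 7 members had an SD of 0.5 or more. Vehicle replicate 3 held the highest of the 6 values for 16 members, Fasn, Acly, Acaca and Scd among them. Vehicle replicate 6 held the lowest for 11 members and replicate 4 for 10. Without replicate 3 the counts of members called were 1, 0, 7, 6 and 7 in order of dose, and without replicate 6 they were 1, 1, 9, 6 and 7. The share of all genes called in these refits is not given here, so the counts cannot be set against it. Where a gene varies this much among vehicle arrays, 3 arrays a dose can show only large differences.

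Dbp, a transcription factor of the circadian clock's output, was higher in every dosed group. It averaged 5.78 ± 0.24 (SD, n = 6) over the vehicle arrays. Dosed group means ran from 10.04 ± 0.37 (n = 3, 129.2 mg/kg) to 10.57 ± 0.32 (n = 3, 1032.5 mg/kg). The fold over vehicle was 19.1 to 27.6. The part of what Dbp reflects in the members' differences from vehicle, among them Scd, Elovl5 and Lpin2, was not tested.

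Promoter sequence is shown for 4 of the 5 members called at 3 doses or more. It covers the 250 bases before the transcription start, 5′ to 3′ on the gene's strand, from RefSeq. Capitals mark matches, on either strand, to motifs of factors known to act on these pathways or at promoters in general.
Pklr (GRCr8 chr2:176841014-176841263, plus strand): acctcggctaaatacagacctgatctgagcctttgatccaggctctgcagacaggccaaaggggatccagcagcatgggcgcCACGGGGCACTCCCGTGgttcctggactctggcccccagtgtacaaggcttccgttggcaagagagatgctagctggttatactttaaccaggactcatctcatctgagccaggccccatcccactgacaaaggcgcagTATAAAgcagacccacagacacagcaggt
Scd (GRCr8 chr1:253231732-253231981, minus strand): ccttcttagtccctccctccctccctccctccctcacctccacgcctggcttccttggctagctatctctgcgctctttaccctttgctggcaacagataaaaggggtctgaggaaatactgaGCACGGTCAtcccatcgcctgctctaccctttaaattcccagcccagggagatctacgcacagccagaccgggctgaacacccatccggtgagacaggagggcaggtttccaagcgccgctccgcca
Me1 (GRCr8 chr8:96540245-96540494, minus strand): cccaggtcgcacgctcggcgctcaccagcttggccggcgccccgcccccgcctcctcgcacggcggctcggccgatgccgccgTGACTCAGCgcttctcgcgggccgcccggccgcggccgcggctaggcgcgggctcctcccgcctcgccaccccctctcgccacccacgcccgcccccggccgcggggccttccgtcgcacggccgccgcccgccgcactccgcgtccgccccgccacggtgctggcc
Elovl5 (GRCr8 chr8:87670914-87671163, plus strand): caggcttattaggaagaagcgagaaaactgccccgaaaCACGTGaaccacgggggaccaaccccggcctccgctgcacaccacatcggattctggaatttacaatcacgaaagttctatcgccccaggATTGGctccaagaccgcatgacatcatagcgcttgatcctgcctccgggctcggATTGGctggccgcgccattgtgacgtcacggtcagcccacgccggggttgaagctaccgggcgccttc

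The Pklr window held, 168 to 152 bases before the start, the paired E-box elements of a carbohydrate response element (CACGNG and CNCGTG with 5 bases between, N being any base), the type of sequence that ChREBP binds. Only Pklr held it among 31 member windows, and 0.0209% of 33469 promoters of the same length did. A TATA box (TATAAA, in 12.9% of promoters) followed 29 to 24 bases before the start. Me1 had a match to the core of the antioxidant response element (TGACNNNGC, in 10.1% of promoters), the sequence bound by Nrf2, 167 to 159 bases before the start. Scd had a match to the same motif on the other strand, 127 to 119 bases before the start. Acss2 and Gpam also had it, so that it was present in members that fell, rose and were not called. Elovl5 had an E-box (CACGTG, 5.59%) 212 to 207 bases before the start and the CCAAT box (CCAAT, 34.0%) in reverse at 122 to 118 and 68 to 64. The window of the fifth such gene, Lpin2, held none of the motifs. No member window had the sterol regulatory element (TCACNCCAC, 0.974%), a direct repeat of AGGTCA spaced by 1 base (0.0508%) or a repeat spaced by 4 bases (0.00299%). The matches printed do not overlap, each describes only these letters, and a missing match says nothing of a factor. Windows were found for 28 members. Those of Acaca, Fasn, Elovl6, Dgat1 and Dgat2 were not analysed here.

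Malic enzyme 1 (Me1, probe set 1370067_at), which makes NADPH in the cytosol from malate, had the largest rise of the set. The 6 vehicle arrays read from 8.28 to 9.25 with a median of 8.89. The 3 arrays at 64.6 mg/kg lay between 8.67 and 9.10, and signals were 9.77, 9.51 and 8.98 at 129.2, 10.40, 9.90 and 10.31 at 258.1, 9.99, 10.72 and 10.27 at 516.2, and 9.90, 11.00 and 11.12 at 1032.5 mg/kg. The lowest dose overlapped the vehicle group, 129.2 mg/kg partly so, and all 9 arrays of the higher doses lay above every vehicle array. The rise was 2.51-fold at 258.1 mg/kg (log2 change 1.33, SE 0.25, limma adjusted p = 0.00563), 2.73-fold at 516.2 (adjusted p = 0.00151) and 3.47-fold at 1032.5 mg/kg (log2 change 1.80, SE 0.25, adjusted p = 0.000103). At 129.2 mg/kg the log2 change was 0.54 (adjusted p = 0.653). Another Me1 probe set gave a smaller change at 258.1 mg/kg that was not called (1.63-fold, log2 change 0.70, adjusted p = 0.0837), and it rose 2.42-fold at 516.2 (adjusted p = 0.000841) and 3.97-fold at 1032.5 mg/kg. Among the 15 dosed arrays alone Me1 gained 0.44 per dose step (95% interval 0.31 to 0.57, adjusted p = 0.000766).

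Of the pentose phosphate enzymes in the set only Tkt was called, and it rose at 516.2 mg/kg only. Transketolase (Tkt, probe set 1386859_at) had vehicle signals of 11.19 to 11.58 and read 11.91, 11.97 and 11.70 at 516.2 mg/kg, above all vehicle arrays, a 1.38-fold rise (log2 change 0.46, SE 0.12, limma adjusted p = 0.0241). That call was lost without 516.2 mg/kg replicate 1 or 2, with adjusted p up to 0.119. At 1032.5 mg/kg its log2 change was 0.23 (adjusted p = 0.33). Transaldolase (Taldo1) stayed between -0.10 and 0.13. Pgd, 6-phosphogluconate dehydrogenase, was called at no dose, and at 258.1 mg/kg it read 8.86, 9.59 and 9.33 against a vehicle range of 9.60 to 10.24 (log2 change -0.59, SE 0.16, adjusted p = 0.0551). A probe set naming Pgd together with other genes was called higher at 516.2 mg/kg (log2 change 0.74, adjusted p = 0.0111). It cannot be assigned to Pgd, and the others of that kind were called at no dose.

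Liver pyruvate kinase (Pklr, probe set 1368651_at), which feeds pyruvate from glucose towards acetyl-CoA, fell at the 3 higher doses. Vehicle arrays ranged from 9.64 to 10.59 with a median of 10.08. The 3 arrays read 9.76, 10.01 and 9.66 at 64.6 mg/kg and 9.98, 9.85 and 9.69 at 129.2 mg/kg. They read 9.15, 9.07 and 9.14 at 258.1, 9.46, 9.63 and 9.38 at 516.2, and 8.97, 8.68 and 9.16 at 1032.5 mg/kg. The 2 lower doses lay inside the vehicle range, and the 9 arrays above lay below it. Pklr was 2.04-fold lower at 258.1 mg/kg (log2 change -1.03, SE 0.16, limma adjusted p = 0.000965), 1.58-fold lower at 516.2 (adjusted p = 0.0172) and 2.32-fold lower at 1032.5 mg/kg (adjusted p = 5.26e-05). The call at 516.2 mg/kg was lost without replicate 1 or replicate 3 of that dose (adjusted p up to 0.0909). Another Pklr probe set fell at 258.1 mg/kg (log2 change -0.99, adjusted p = 0.00249) and 1032.5 mg/kg (log2 change -0.99, adjusted p = 0.000858), and gave -0.32 (adjusted p = 0.288) at 516.2 mg/kg. The slope over the 15 dosed arrays was -0.21 per dose step (95% interval -0.30 to -0.12, adjusted p = 0.014).

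**Figure D2:**
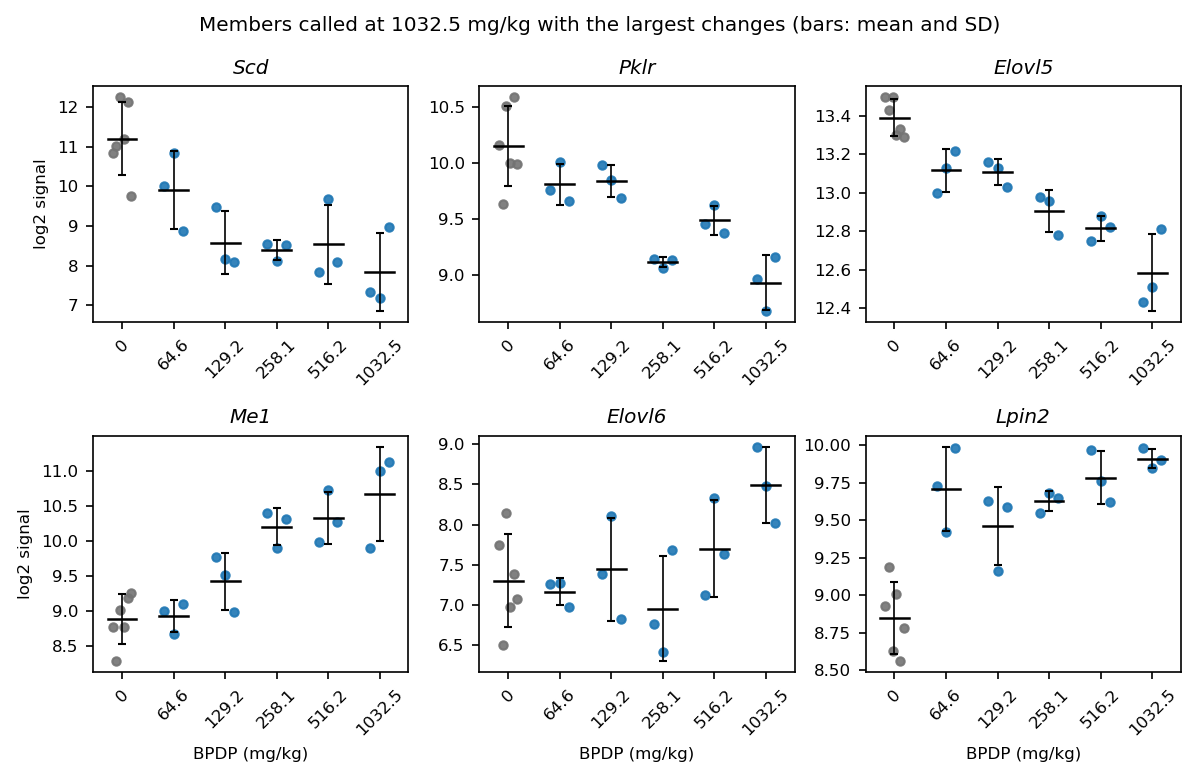
Log2 signal on each array (points; grey vehicle, blue dosed) with the group mean and SD (black), by dose in mg/kg, for 6 members called at 1032.5 mg/kg. Scd, Pklr and Elovl5 step down and Me1 steps up over the doses, Elovl6 is above the vehicle mean mainly at 1032.5 mg/kg, and Lpin2 is already higher at 64.6 mg/kg.

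The enzymes from citrate to palmitate had their lowest mean at 258.1 mg/kg and not at the top dose. They are Slc25a1, the mitochondrial citrate carrier, Acly, ATP citrate lyase, Acss2, which makes acetyl-CoA from acetate, Acaca, the acetyl-CoA carboxylase of fatty acid synthesis, and Fasn, fatty acid synthase. Of these Fasn alone was called, and only at that dose.

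Fasn (probe set 1367708_a_at) read 11.63, 10.84, 12.27, 10.47, 10.75 and 10.87 on the 6 vehicle arrays. It read 11.46, 11.15 and 10.36 at 64.6 mg/kg, 11.00, 11.40 and 9.99 at 129.2, 9.74, 9.80 and 9.68 at 258.1, 10.81, 11.35 and 11.29 at 516.2, and 11.16, 10.69 and 11.12 at 1032.5 mg/kg. The 3 arrays at 258.1 mg/kg lay close together and below every vehicle array, while those of all other doses overlapped the vehicle group. Fasn was 2.64-fold lower at 258.1 mg/kg (log2 change -1.40, SE 0.33, limma adjusted p = 0.0269). The log2 change was -0.34 at 129.2 mg/kg, 0.01 at 516.2 (95% interval -0.68 to 0.70) and -0.15 at 1032.5 mg/kg (-0.84 to 0.54). Another Fasn probe set also fell at 258.1 mg/kg (log2 change -1.53, adjusted p = 0.026). The call was lost when vehicle replicate 1 or any array at 258.1 mg/kg was left out (adjusted p up to 0.137), and with only the arrays of these groups in the fit (adjusted p = 0.064).

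Acly read 11.17, 11.26 and 11.14 at 258.1 mg/kg, below the vehicle range of 11.41 to 12.92 (log2 change -0.84, SE 0.28, limma adjusted p = 0.145). Acss2 read 10.55, 10.63 and 10.33, below a vehicle range of 10.74 to 11.57 (log2 change -0.64, adjusted p = 0.114). Acaca read 9.56, 9.57 and 9.53, below a range of 9.82 to 10.55 (log2 change -0.56, adjusted p = 0.108), while a dim Acaca probe set (mean 5.45) gave 0.02 and overlapped the vehicle group. For Slc25a1 2 of the 3 arrays lay below the vehicle group (log2 change -0.38, adjusted p = 0.192). None of these 4 was called, yet all of their 516.2 and 1032.5 mg/kg changes were between -0.25 and 0.16. Acacb, the carboxylase at the mitochondrion, was dim (mean log2 signal 5.16, near the lower quartile of 5.04) and differed from the vehicle by at most 0.13.

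Counted over all members, 11 had 3 arrays at 258.1 mg/kg wholly outside the vehicle range, 9 below and 2 above it, or 33.3% against 9.17% of all genes. At the other doses 2, 3, 6 and 7 members did so in order of dose, against 5.43%, 5.04%, 14.2% and 14.0% of genes. The group mean was lowest at 258.1 mg/kg for 15 members and lowest at 1032.5 mg/kg for 6. No member was called between neighbouring doses, where 0.00% of all genes were called. At an unadjusted p below 0.05, 8 of 33 members differed between 258.1 and 129.2 mg/kg, where 4.81% of all genes did. Between 516.2 and 258.1 mg/kg 7 did so, where 7.20% of all genes did, and the log2 difference of Fasn was 1.41 (SE 0.38, adjusted p = 0.706). With array weights in limma 5 members were called lower at 258.1 than at 129.2 mg/kg: Fasn, Pklr, Acss2, Acaca and Slc25a1. In that weighted fit 1.04% of all genes were called lower. Without weights no difference between 258.1 mg/kg and its neighbours passed the test.

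**Figure D3:**
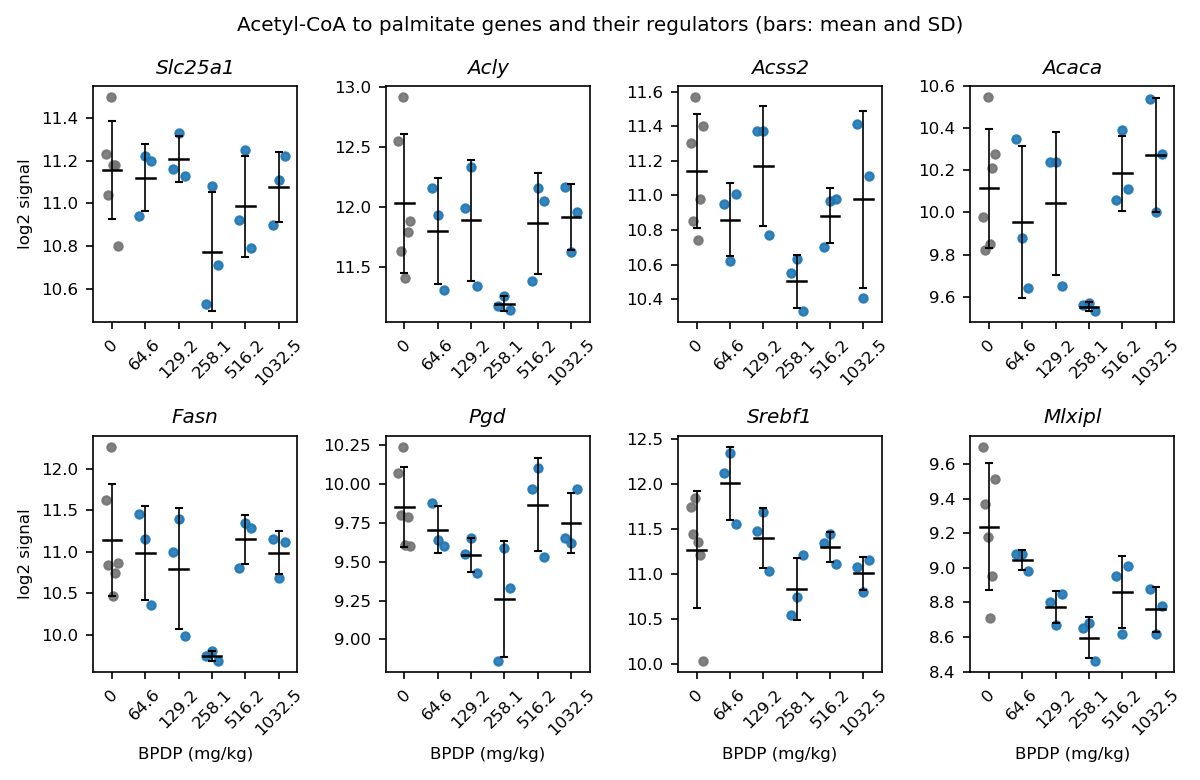
Log2 signal on each array (points; grey vehicle, blue dosed) with the group mean and SD (black), by dose in mg/kg, for the enzymes from citrate to palmitate with Pgd, Srebf1 and Mlxipl. Fasn, Acly, Acss2 and Acaca lie below all vehicle arrays at 258.1 mg/kg and overlap them at 516.2 and 1032.5 mg/kg.

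The mean of the 33 log2 signals on each array summarises these same values. Vehicle arrays averaged 9.93 ± 0.17 (SD, n = 6). With n = 3 each, the dosed groups averaged 9.87 ± 0.12 (64.6 mg/kg), 9.80 ± 0.20 (129.2), 9.60 ± 0.05 (258.1), 9.92 ± 0.11 (516.2) and 9.82 ± 0.17 (1032.5). The arrays at 258.1 mg/kg, 9.56, 9.59 and 9.65, were all below the lowest vehicle array, 9.75, and the difference of means was -0.33. It was -0.28 without vehicle replicate 3 and -0.24 over the 29 members other than Scd, Fasn, Me1 and Pklr. At every other dose at least 1 array fell within the vehicle range. The mean over all genes moved by at most 0.02.

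**Figure D4:**
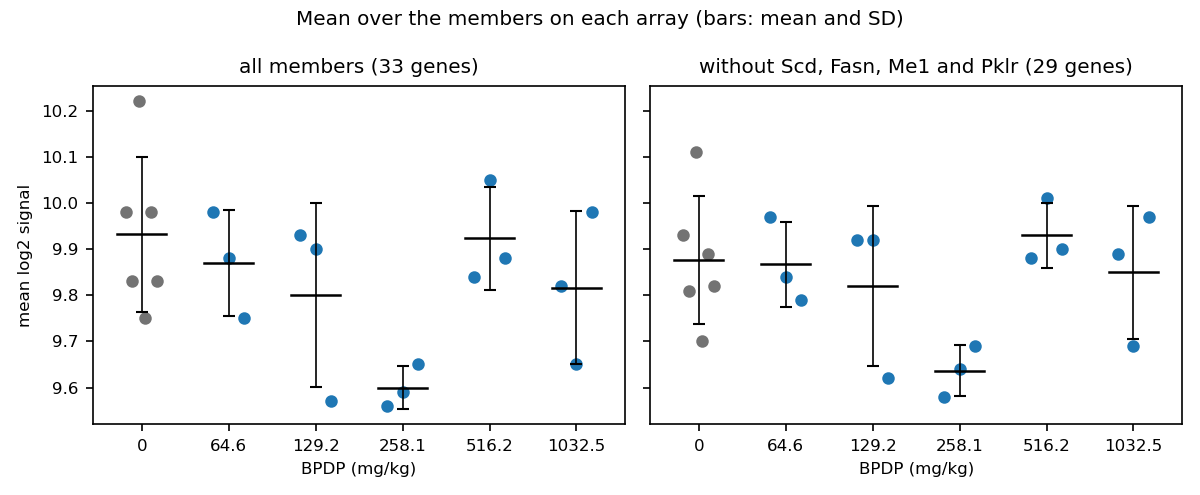
Mean log2 signal over all 33 members (left) and over the 29 without Scd, Fasn, Me1 and Pklr (right) on each array (points), with the group mean and SD (black), by dose in mg/kg. In the left panel the 3 arrays at 258.1 mg/kg lie between 9.56 and 9.65, below all 6 vehicle arrays.

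Thrsp (Spot 14) and its relative Mid1ip1, which promotes polymerisation of acetyl-CoA carboxylase, were called at no dose. Their log2 changes at 64.6 mg/kg were 0.84 (limma adjusted p = 0.32) and 0.71 (adjusted p = 0.604), and at 258.1 mg/kg 0.20 and -0.39.

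Stearoyl-CoA desaturase (Scd, probe set 1370355_at), which makes oleate and palmitoleate from saturated chains, had the largest change of the set. Vehicle arrays read 10.84, 11.01, 12.26, 11.20, 12.12 and 9.76. Signals were 10.01, 10.84 and 8.87 at 64.6 mg/kg, 9.49, 8.16 and 8.08 at 129.2, 8.55, 8.11 and 8.53 at 258.1, 7.85, 9.67 and 8.09 at 516.2, and 7.34, 7.19 and 8.98 at 1032.5 mg/kg. At 64.6 mg/kg the arrays overlapped the vehicle group, and all 12 arrays of higher doses lay below it. Scd was 6.14-fold lower at 129.2 mg/kg (log2 change -2.62, SE 0.54, limma adjusted p = 0.0349), 6.96-fold at 258.1 (adjusted p = 0.00661), 6.34-fold at 516.2 (adjusted p = 0.0055) and 10.2-fold at 1032.5 mg/kg (log2 change -3.36, 95% interval -4.48 to -2.23, adjusted p = 0.000455). At 64.6 mg/kg the log2 change was -1.29 (adjusted p = 0.519).

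The call of Scd at 129.2 mg/kg was lost when any of vehicle replicates 1 to 5, or replicate 2 or 3 of that dose, was left out (adjusted p up to 0.224), although the log2 change kept between -3.07 and -2.37. At 516.2 mg/kg it was lost without replicate 1 (adjusted p = 0.059). Scd was not called between any dose and the dose below it, and over the 15 dosed arrays, 64.6 mg/kg included, the slope was -0.42 per step (95% interval -0.69 to -0.15, adjusted p = 0.108). No other desaturase was called. Scd2, the isoform better known from brain, had log2 changes of -0.26 to 0.29. Fads1 and Fads2, the delta-5 and delta-6 desaturases of polyunsaturated fatty acids, lay between -0.26 and 0.30, with none called.

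Among the elongases Elovl5 fell and Elovl6 rose. Elovl5 (probe set 1388348_at), which lengthens polyunsaturated chains, had little spread: 13.29 to 13.50 in the vehicle group. It read 13.00, 13.13 and 13.22 at 64.6 mg/kg, 13.16, 13.13 and 13.03 at 129.2, 12.98, 12.96 and 12.78 at 258.1, 12.75, 12.88 and 12.82 at 516.2, and 12.43, 12.51 and 12.81 at 1032.5 mg/kg. All 15 dosed arrays were below all 6 vehicle arrays. The log2 change was -0.28 at 64.6 mg/kg (limma adjusted p = 0.282) and -0.28 at 129.2 (adjusted p = 0.278). The fall was 1.40-fold at 258.1 (adjusted p = 0.00378), 1.49-fold at 516.2 (adjusted p = 0.000459) and 1.75-fold at 1032.5 mg/kg (log2 change -0.81, SE 0.087, adjusted p = 5.48e-06). Its slope over the dosed arrays was -0.14 per step (95% interval -0.19 to -0.09, adjusted p = 0.00379). At 258.1 mg/kg the call was just lost without replicate 3 (adjusted p = 0.0509). Another, dimmer Elovl5 probe set was lower at each dose by 0.48 to 0.91 without being called.

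Elovl6 (probe set 1388108_at), which takes palmitate to stearate, read 8.97, 8.48 and 8.02 at 1032.5 mg/kg against a vehicle range of 6.50 to 8.14 with a median of 7.23. The groups overlapped, at replicate 3 of the top dose and vehicle replicate 3. The rise was 2.27-fold (log2 change 1.19, SE 0.34, limma adjusted p = 0.0439), and another probe set rose too (log2 change 1.03, adjusted p = 0.0141). For the brighter probe set the call was lost in 6 of the 9 fits that left out an array (adjusted p up to 0.232): vehicle replicates 2, 4, 5 and 6, and replicates 1 and 2 of the dose. At lower doses its log2 change was between -0.35 and 0.39. Elovl1 and Elovl2, which act on very long and on polyunsaturated chains, were called at no dose and ranged from -0.43 to 0.12.

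**Figure D5:**
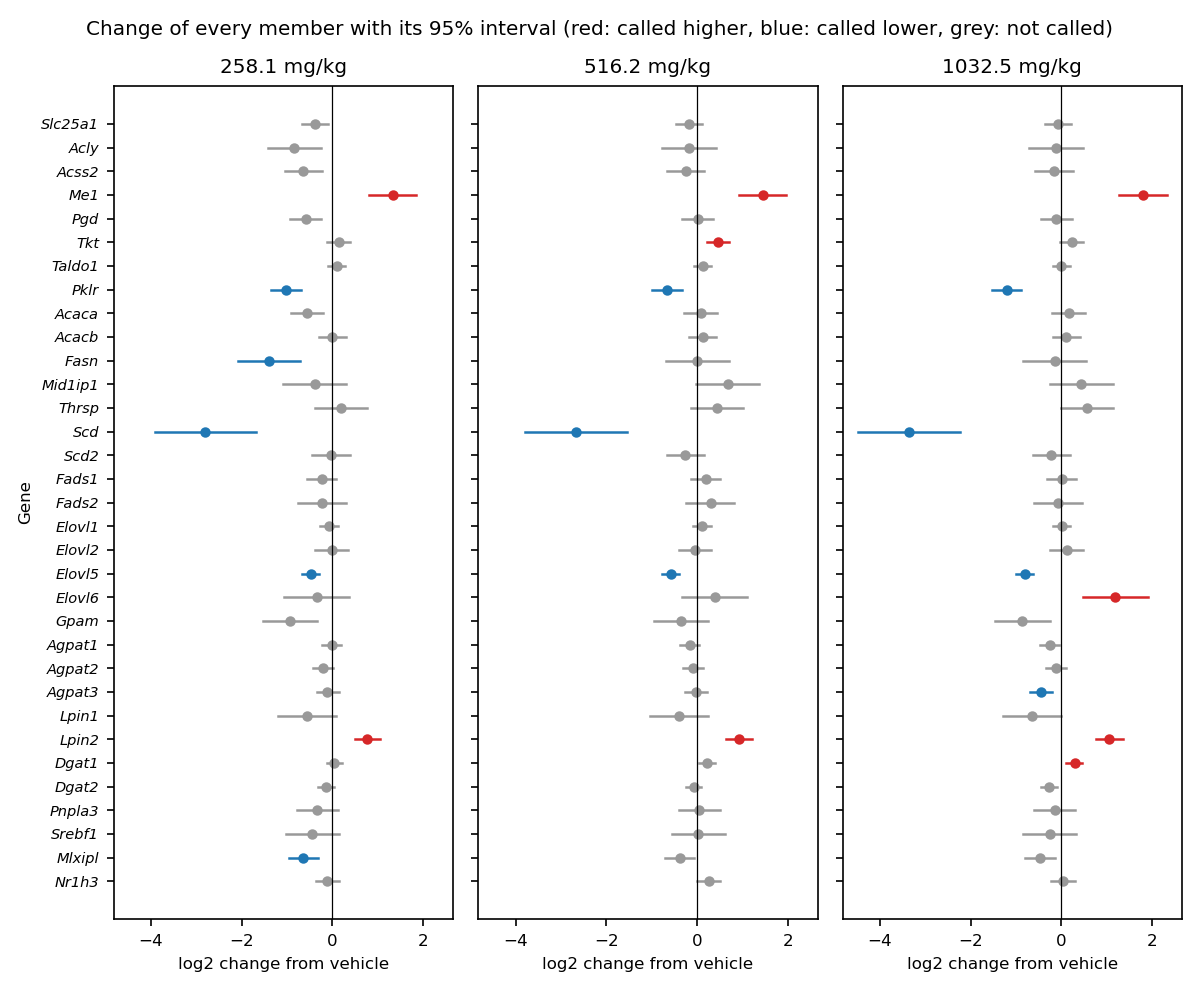
Log2 change from vehicle (points) with its 95% interval (lines) for all 33 members at 258.1, 516.2 and 1032.5 mg/kg, in red or blue where called higher or lower and grey where not called. Scd, Pklr, Elovl5, Me1 and Lpin2 are coloured in all 3 panels, Fasn and Mlxipl only at 258.1 mg/kg, and Elovl6, Dgat1 and Agpat3 only at 1032.5 mg/kg.

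Of the 8 enzymes that assemble glycerolipids, Lpin2 and Dgat1 rose and Agpat3 fell at 1032.5 mg/kg. Lipin 2 (Lpin2, probe set 1383665_at), a phosphatidate phosphatase that makes diacylglycerol, was the only member called at 64.6 mg/kg. Vehicle arrays read 8.56 to 9.19 with a median of 8.86. Signals were 9.73, 9.42 and 9.98 at 64.6 mg/kg, 9.63, 9.16 and 9.59 at 129.2, 9.55, 9.68 and 9.65 at 258.1, 9.97, 9.76 and 9.62 at 516.2, and 9.98, 9.85 and 9.90 at 1032.5 mg/kg. Of the 15 dosed arrays 14 lay above every vehicle array, the exception being replicate 2 at 129.2 mg/kg. The rise was 1.81-fold at 64.6 mg/kg (log2 change 0.86, SE 0.14, limma adjusted p = 0.00456) and 2.08-fold at 1032.5 mg/kg (adjusted p = 5.07e-05). At 129.2 mg/kg the log2 change was 0.61 (adjusted p = 0.0671). The slope over the dosed arrays was 0.07 per step (95% interval -0.00 to 0.15, adjusted p = 0.348).

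Limits apply to Lpin2. The call at 64.6 mg/kg was lost without replicate 3 of that dose (adjusted p = 0.08). A dimmer probe set for Lpin2 changed by -0.12 to 0.09 and was called at no dose.

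Lpin1, the relative of Lpin2 that also acts as a coactivator, was called at no dose by its brightest probe set (log2 change -0.64 at 1032.5 mg/kg, limma adjusted p = 0.274), whose vehicle arrays spread from 9.35 to 11.38. Another Lpin1 probe set was lower at 258.1 mg/kg (log2 change -0.80, adjusted p = 0.0403) and at 516.2 mg/kg (log2 change -0.70, adjusted p = 0.0438). Gpam, the mitochondrial acyltransferase that begins the pathway, had negative log2 changes at all 5 doses, the largest -0.93 at 258.1 mg/kg (adjusted p = 0.108) and -0.86 at 1032.5 mg/kg (adjusted p = 0.0895), with none called. Its mean log2 signal, 6.11, was below that of the median probe set, 6.36. Another, dimmer Gpam probe set gave smaller changes at these doses, -0.20 (adjusted p = 0.641) and -0.24 (adjusted p = 0.4). Agpat1 and Agpat2, which add the next chain, changed by -0.28 to -0.02.

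Agpat3 (probe set 1382041_at), of the same acyltransferase family, read 8.39, 8.27 and 8.14 at 1032.5 mg/kg, below the vehicle range of 8.52 to 8.92 (log2 change -0.45, SE 0.12, limma adjusted p = 0.0236). Its call was lost without replicate 2 or 3 of that dose (adjusted p up to 0.129). Of its 5 other probe sets 1 also fell (log2 change -0.38, adjusted p = 0.00742) and the rest ranged from -0.06 to 0.12.

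Dgat1 and Dgat2 catalyse the step that makes triglyceride. Dgat1 (probe set 1367915_at) read 10.13, 10.13 and 10.22 at 1032.5 mg/kg, above the vehicle range of 9.75 to 10.07. This was a 1.22-fold rise (log2 change 0.29, SE 0.083, limma adjusted p = 0.044), lost in 8 of the 9 fits that left out an array, all but the one without vehicle replicate 5 (adjusted p up to 0.167). Dgat2 read 12.30, 11.94 and 11.96 there against 12.24 to 12.42 (log2 change -0.27, adjusted p = 0.0542). Over all 21 arrays Dgat1 gained 0.06 per step (adjusted p = 0.0115) and Dgat2 changed by -0.05 per step (adjusted p = 0.0317). Pnpla3, a lipase and remodelling enzyme of the lipid droplet, lay between -0.33 and 0.05 and was not called.

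Of the transcription factors only Mlxipl was called. Mlxipl (ChREBP, probe set 1368614_at) read 8.65, 8.68 and 8.46 at 258.1 mg/kg, below the vehicle range of 8.71 to 9.70, and was 1.56-fold lower (log2 change -0.64, SE 0.15, limma adjusted p = 0.0294). The call was lost without vehicle replicate 1 or 2 or any array of that dose (adjusted p up to 0.181). Its log2 change was -0.46 at 129.2 mg/kg, -0.38 at 516.2 and -0.48 at 1032.5 mg/kg (adjusted p = 0.0757). Srebf1, which encodes SREBP-1a as well as SREBP-1c, read 12.12, 12.34 and 11.55 at 64.6 mg/kg and 10.54, 10.74 and 11.21 at 258.1 mg/kg. Each group overlapped the vehicle range of 10.03 to 11.84. Its log2 change went from 0.73 (adjusted p = 0.446) to -0.44 (adjusted p = 0.606), and it was called at no dose. Nr1h3 lay between -0.11 and 0.27.

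Over the dose steps of all 21 arrays 4 members rose (Me1, Tkt, Lpin2 and Dgat1) and 5 fell (Scd, Pklr, Elovl5, Mlxipl and Dgat2), where 8.76% of all genes rose and 6.25% fell, and with cyclic loess 2 rose and 5 fell. Among the 15 dosed arrays alone 2 rose, Me1 and Dgat1, and 2 fell, Pklr and Elovl5, where 2.28% of all genes rose and 1.13% fell, and with cyclic loess 1 rose and 3 fell. The shares of all genes called with cyclic loess are not given here.

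Of 48 other genes of the pathway, such as fatty acid activation, chain-elongation partners and regulators, 42 were measured. None was called at the 2 lower doses, 1 rose and 3 fell at 258.1 mg/kg, 3 and 3 at 516.2, and 4 and 3 at 1032.5 mg/kg. The shares called at those 3 doses were 9.52%, 14.3% and 16.7%, against 3.56%, 8.93% and 8.95% of all genes. Acsl5, which activates fatty acids to acyl-CoA, was 2.37-fold lower at 1032.5 mg/kg (limma adjusted p = 1.66e-05), and all 15 dosed arrays were below the vehicle group. Insig2, which retains SREBPs in the endoplasmic reticulum, was 2.88-fold lower (adjusted p = 0.000767), and Slc27a5, an activating enzyme of bile acids and fatty acids, 1.76-fold lower (adjusted p = 0.000357). Slc25a10, the mitochondrial dicarboxylate carrier, rose 1.43-fold (adjusted p = 0.000182) and Slc27a2, which activates very long chains, 1.38-fold (adjusted p = 0.000364). Oxsm of the mitochondrial synthase rose 1.36-fold (adjusted p = 0.0486) and Idh1, another cytosolic source of NADPH, 1.22-fold (adjusted p = 0.0139). Hacd3, of the elongation cycle, was lower at 258.1 mg/kg only, 1.24-fold (adjusted p = 0.0394).

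Cholesterol synthesis shares the SREBP system, and 17 of its 20 listed genes were measured. At 258.1 mg/kg all 17 had negative log2 changes, with a median of -0.48 and 2 called lower (11.8%, against 1.33% of all genes). All 17 were negative at 64.6 mg/kg too, from -0.48 to -0.04, with none called. The median was -0.21, 0.28, 0.13 and 0.32 at 64.6, 129.2, 516.2 and 1032.5 mg/kg, with 1 gene called higher at the top dose (5.88%, against 4.81% of all genes) and none at the others.

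The tissue label held. All 7 hepatocyte markers were bright, with a mean per array between 13.77 and 14.11 in every group, and none was called. Of 4 adipocyte markers Adipoq and Lep were below the lower quartile of all probe sets, and the list's mean ran from 5.93 to 6.29 with none called. Stellate cell and fibroblast markers fell in 2, 5 and 3 of 7 at the 3 higher doses, where the mean per array was 7.28 to 8.17 against 8.01 to 8.40 in the vehicle group. Of all genes 1.33%, 2.64% and 4.14% fell at these doses, and 2.23%, 6.30% and 4.81% rose. At 1032.5 mg/kg the 2 red cell markers measured fell (median log2 change -1.95) and 1 of 4 Kupffer cell markers fell (median -0.61). Of 4 endothelial markers 1 fell at 516.2 mg/kg, and of 3 cholangiocyte markers 1 rose at each of the 3 higher doses. The 2 neutrophil markers measured, S100a8 being below the lower quartile, and the 4 lymphocyte markers were called at no dose. The neutrophil mean per array ran from 5.32 to 8.34 in the vehicle group and from 5.07 to 5.85 over the dosed groups, so the vehicle arrays differed widely in it. No marker was called at the 2 lower doses. In whole liver, fewer cells of a type and less RNA per cell cannot be told apart. The part of these markers in the members' values was not tested. RNA integrity was gauged by the 5′ minus 3′ log2 signal of the Gapdh and beta-actin control probe sets. Vehicle arrays averaged -1.95 ± 0.29 (SD, n = 6) and the dosed groups from -2.30 to -1.54. Single arrays ran from -3.10 to -1.35 at 258.1 mg/kg (SD 0.93) and from -2.83 to -1.58 at 516.2 mg/kg (SD 0.64). The vehicle arrays ran from -2.40 to -1.68. With the 5′ minus 3′ signal as a covariate the counts of members called were 1, 1, 8, 6 and 6 in order of dose. The share of all genes called in that fit is not given here. The calls of Elovl6 (adjusted p = 0.0865) and Dgat1 (adjusted p = 0.0933) at 1032.5 mg/kg were lost, and Pgd was called lower at 258.1 mg/kg (adjusted p = 0.026).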

How the data were processed

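Liver RNA was hybridised to an Affymetrix rat expression array. The authors deposited 1 log2 signal for each probe set and array, and per the submitters' processing notes these came from RMA, whose version and settings are not stated in what was used here. Values were taken as deposited. Precision is limited by the number of arrays (3 a dose, 6 for vehicle). With 57 array controls removed, 31042 probe sets entered the fit: 20826 carry a single gene symbol, 436 more than 1 and 9780 no symbol. Symbols were brought to RefSeq GRCr8 by Entrez identifier (20758) or accession (2), and 66 were kept. Each gene stands for its brightest probe set among those that name it alone.

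Group means were fitted to the 21 arrays together in limma 3.58.1 under R 4.3.3 (lmFit, eBayes, defaults) with no covariate, and the spread was pooled over groups. The contrasts were each dose with vehicle, each dose with the dose below it, and a slope on the dose step in 21 and in the 15 dosed arrays. Tests were two-sided, Benjamini-Hochberg adjustment covered the whole array, and intervals are 95%. The code was tested on simulated data. All comparisons with vehicle share its 6 arrays. The members, the other gene lists, the cell markers, the motifs and Dbp were chosen with earlier results of these data known. Named genes are the members called at any dose, index genes of each step, and up to 8 called genes of the rest of the pathway. Uncalled genes outside the index are given mainly by range. Alternatives were fits with only the groups compared, cyclic loess, median scaling, a filter on dim probe sets, 1 probe set per gene, trend and robust variance, array weights, an RNA integrity covariate, a replicate block, other probe sets or their mean, a linear dose scale, other averages of the members, and each array left out.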

Additional observations from a re-analysis of the deposited data

Results flagged for a closer look

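Among the 6 vehicle arrays, 3 of the members had a value set far apart from the other 5, the gap to the nearest exceeding 0.625 of the whole range (Dixon's 95% criterion). Chance flags about 1 in 20 groups, and 34 sets of values (33 members and their mean) were examined in the vehicle group. Pnpla3 read 6.70 on vehicle replicate 3, with the next highest at 5.84. Srebf1 read 10.03 on vehicle replicate 6, with the next lowest at 11.21. Nr1h3 read 10.34 on vehicle replicate 6, with the next lowest at 10.71. None of the 3 genes was called at any dose.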

How the results depend on the processing

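Of 165 pairs of a member and a dose, 23 were called, and 12 of these stayed called under every alternative other than the choice of probe set: Me1 and Lpin2 at 258.1, 516.2 and 1032.5 mg/kg, Scd at 258.1 and 1032.5, Pklr at 258.1 and 1032.5, and Elovl5 at 516.2 and 1032.5 mg/kg. The single call at 64.6 mg/kg became 0 with only the groups compared and with the replicate block, and 0 to 1 with an array left out. The single call at 129.2 mg/kg became 0 with only the groups compared and with an intensity trend and robust variance, 2 with 1 probe set per gene, 6 with array weights (2 rose, 4 fell, where 8.12% of all genes were called), and 0 to 1 with an array left out. With an array left out the counts ran from 4 to 9 at 258.1 mg/kg (4 without replicate 3), 3 to 7 at 516.2 mg/kg (3 without replicate 1) and 5 to 8 at 1032.5 mg/kg (5 without replicate 2). Between neighbouring doses array weights called 5 members in place of 0. Among the alternatives, the share of all genes called is given here only for array weights, so the other counts cannot be set against it. Other counts, and the mean of the members, stayed within 1.5 times or 1 SD under the alternatives run. Other probe sets reversed the sign of Lpin2 at 516.2 mg/kg (-0.12) and of Agpat3 at 1032.5 mg/kg (0.01 and 0.12). The cause was not tested. Over all genes the deviations of 45 same-numbered pairs of arrays correlated at -0.289 to 0.359 (median 0.0348). The median was -0.0156 for other pairs between groups. Correlations over all genes cannot exclude that arrays of the same number share an effect in the members. With the replicate block 0, 1, 8, 5 and 6 members were called in order of dose, but not all were the same genes. It ended 7 of the 23 calls: Lpin2 at 64.6 (adjusted p = 0.0839), Scd at 129.2 (0.103), Tkt (0.112) and Pklr (0.0593) at 516.2, and Elovl6 (0.235), Agpat3 (0.0989) and Dgat1 (0.101) at 1032.5 mg/kg. It added 4, Pgd at 258.1 mg/kg and Mlxipl at 129.2, 516.2 and 1032.5 mg/kg. Signals near the lower quartile, as for Acacb, leave little room to see a fall.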
